A study of Mus musculus with 32 samples.

Results

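The change of the muscle transcriptome of wild-type (WT) mice between postnatal day (P) 1 and P14 was measured in 8 of the 32 libraries of the series. The members are all libraries labelled WT at these ages, n = 4 at P1 and n = 4 at P14, and no measured value was used to choose them. Both groups were mice of the C57BL6/J background. The labels call the tissue Skeletal Muscle. The results of the study name the tibialis anterior (TA), a fast muscle of the shin, for both ages. The WT animals were littermates of *Mtm1* knockout (KO) mice, a model of X-linked myotubular myopathy in which the lipid phosphatase myotubularin is lost, and they carried no allele or treatment of their own. The other libraries were WT mice at P21 and P35 and KO mice at all 4 ages, with n = 4 each. Each library holds polyadenylated RNA of whole muscle, so the values average over fibres, satellite cells, vessels, nerve and connective tissue. Fewer cells of a type and less RNA per cell cannot be told apart in such samples.

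Newborn mouse limb muscle still runs on a fetal programme. Its fibres carry developmental myosins and the fetal acetylcholine receptor, are joined by dividing myogenic precursors and have an incomplete system of transverse tubules. In the first weeks after birth the fibres take on adult fast myosins, a single nerve ending per junction, the triads that couple the membrane to calcium release, and the metabolic enzymes of fast muscle, while cell division and fetal growth genes are turned down. The comparison of P1 with P14 covers that period in healthy muscle.

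Libraries held 58004300 to 70208933 counts assigned to genes. Levels are given as counts per 1000000 (CPM) of each library after scaling by the trimmed mean of M-values (TMM) in edgeR, and changes as the log2 of P14 over P1 with the standard error (SE). The SE was derived from the edgeR test, as the absolute log2 change divided by the square root of the F statistic. A gene was called changed at an edgeR quasi-likelihood adjusted p under 0.01 and a fold over 1.5. Of 17435 genes tested, 9601 (55.1%) were called, 4304 (24.7%) higher and 5297 (30.4%) lower at P14. Past a fold of 4 these were 780 (4.47%) higher and 1988 (11.4%) lower. The 4 P1 and the 4 P14 values did not overlap for 13258 genes (76.0%). These shares are the background for every count below: a list with about 24.7% of its genes higher and 30.4% lower does what all genes do.

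The balance of rises and falls depended on the scaling. The 10 most counted genes of a library took 13.7% to 14.5% of counts at P1 and 20.8% to 23.0% at P14 (exact permutation test, p = 0.0286, the smallest that 4 against 4 allows), so the other genes shared a smaller remainder of the reads at P14. With TMM, which sets the bulk of genes to no change, the median log2 change over all genes was -0.08. With plain library totals it was -0.85, 1598 genes (9.17%) were higher and 10025 (57.5%) lower, and 819 of the 4304 genes called higher had a negative sign. Counts of genes are therefore followed by the counts obtained with library totals, and the text says where a named gene turns.

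All 8 libraries carried the genes that define skeletal muscle. The summed share of *Acta1*, *Ckm*, *Ttn*, *Neb*, *Tnnt3*, *Mylpf*, *Myh4* and *Casq1* was 4.60% to 5.50% of counts at P1 and 13.2% to 14.4% at P14. All 8 genes were called higher (7 with library totals), *Myh4* with the largest change. The developmental chains *Myh3* and *Myh8* are not in the list. Its rise is therefore no measure of how much of a sample was muscle. Other tissues were present too, and more so at P1. Of 20 keratinocyte genes 19 fell (20 with library totals), and their share was 0.363% to 1.21% of counts at P1 and 0.00130% to 0.00168% at P14. *Krt5*, a keratin of the basal epidermis, was found at 188, 172, 562 and 234 CPM at P1 and 0, 0, 0 and 0 CPM at P14, which is at least 4530-fold lower against a floor of 3 counts per library. *Krt10*, a keratin of the differentiated epidermis, was at 1168, 911, 2969.6 and 1154 CPM at P1 and 3.84, 3.82, 3.30 and 3.94 CPM at P14. P1 replicate 3 held the most of both. Genes of cartilage and bone took 0.0834% to 0.142% of counts at P1 and 0.00143% to 0.00350% at P14, and 10 of 12 fell (11 with library totals), among them *Ibsp*, which encodes bone sialoprotein, at 284, 106, 73.6 and 263 CPM at P1 and 0.0179, 0, 0.0223 and 0.0721 CPM at P14. Adipocyte genes fell in 6 of 9 cases (8 with library totals), macrophage genes in 10 of 14 (14), tendon genes in 4 of 5 (5) and erythroid genes in 7 of 10 (10). Haemoglobin genes took 0.115% to 0.273% of counts at P1 and 0.0403% to 0.0588% at P14.

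**Figure D1:**
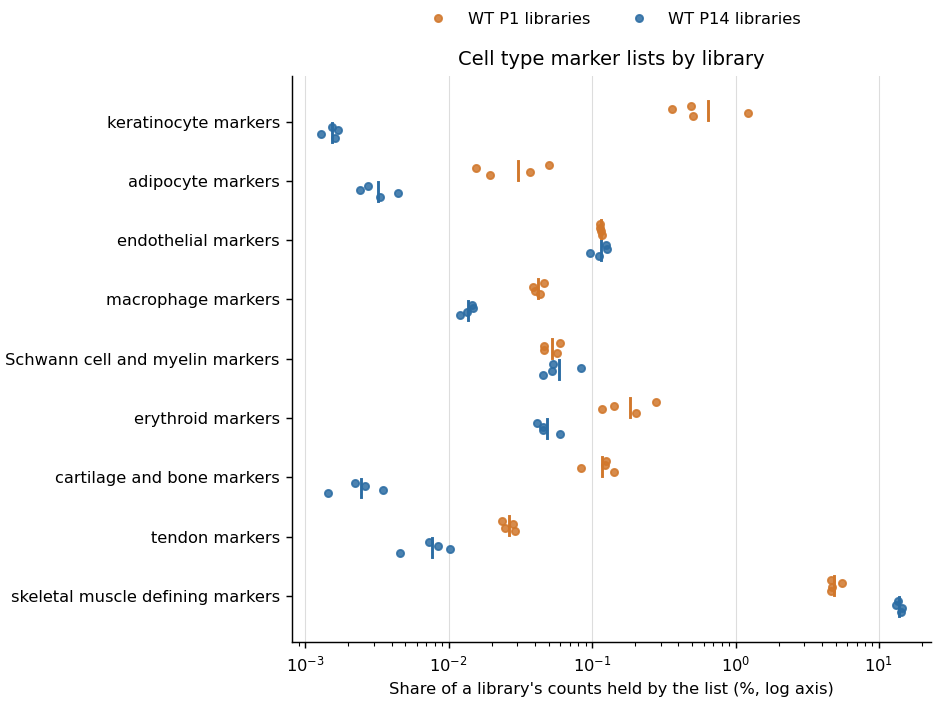
Share of all counts (%, log axis) taken by 9 lists of marker genes in each library, with P1 in orange and P14 in blue. Muscle-defining genes lie higher at P14, keratinocyte genes (0.363% to 1.21% against 0.00130% to 0.00168%) and cartilage and bone genes lie lower, and the endothelial and Schwann cell shares overlap between the ages.

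The shares of endothelial and nerve-sheath genes overlapped between the ages. Of 14 endothelial genes 9 rose and 0 fell on the TMM scale, whereas 0 were called in either direction with library totals, and their share was 0.114% to 0.118% of counts at P1 and 0.0974% to 0.127% at P14 (exact permutation test, p = 1.0). Schwann cell genes took 0.0459% to 0.0602% of counts at P1 and 0.0455% to 0.0843% at P14 (exact permutation test, p = 0.714), with 5 of 13 higher and 4 lower (2 and 6 with library totals). *Ngfr*, a receptor of immature Schwann cells, fell (-2.50 ± 0.23, edgeR adjusted p = 5.68e-06). The part that these other cells play in the changes of growth, cell cycle and matrix genes described below was not tested. Leaving out P1 replicate 3, which held 1.21% keratinocyte RNA against 0.363% to 0.506% in the other P1 libraries, gave 4272 genes higher and 5237 lower. Leaving out P14 replicate 4, in which 59.3% of the genes called higher had their highest P14 value and 50.3% of those called lower their lowest, gave 4284 and 5314.

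Myosin heavy chain genes exchanged almost completely. The heavy chains are the motor proteins of the thick filament, and the 6 developmental and fast genes measured lie side by side on chromosome 11 (GRCm38), with *Myh3* at 67078300-67102291, *Myh2* at 67171027-67197517, *Myh1* at 67200052-67224575, *Myh4* at 67238029-67260446, *Myh8* at 67277124-67308634 and *Myh13* at 67321658-67371586, all on the plus strand. The 250 bases before the RefSeq start of *Myh8* and of *Myh4* (GRCm38.p6, chr11:67276874-67277123 and chr11:67237562-67237811) are shown because these genes made the largest fall and the largest rise in mean CPM of all called genes. Capitals mark the E-box CAGCTG, a motif of the myogenic factors, which was searched on both strands.
Myh8: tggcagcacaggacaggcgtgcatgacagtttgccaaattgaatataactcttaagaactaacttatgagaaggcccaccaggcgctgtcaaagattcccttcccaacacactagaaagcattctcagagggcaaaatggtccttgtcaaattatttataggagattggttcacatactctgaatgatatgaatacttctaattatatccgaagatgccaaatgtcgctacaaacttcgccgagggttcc
Myh4: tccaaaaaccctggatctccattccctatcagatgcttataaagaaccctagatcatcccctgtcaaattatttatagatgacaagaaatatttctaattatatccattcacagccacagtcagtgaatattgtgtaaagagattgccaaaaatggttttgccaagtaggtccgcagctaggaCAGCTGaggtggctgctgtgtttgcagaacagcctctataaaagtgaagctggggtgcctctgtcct
The *Myh4* stretch holds 1 such E-box, 67 to 62 bases before the start, and the *Myh8* stretch holds 0. Of 27025 genes with a RefSeq promoter window, 14.7% hold CAGCTG in the 250 bases before the start. A match is a description of the letters and no evidence of binding.

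*Myh8*, the perinatal heavy chain, measured 16083, 21249.6, 17414 and 16114 CPM at P1 and 464, 617, 178 and 82.0 CPM at P14, a 52.9-fold fall of the mean (-5.72 ± 0.63, edgeR adjusted p = 2.03e-05). *Myh3*, the embryonic heavy chain, stood at 2249, 2618, 2281 and 2460.4 CPM at P1 and 54.9, 74.9, 35.6 and 26.5 CPM at P14 (-5.64 ± 0.33, edgeR adjusted p = 3.94e-07). Neither gene overlapped between the ages. *Myh4*, which encodes the heavy chain of type IIb fibres, was at 72.5, 92.3, 89.1 and 58.1 CPM at P1 and 66812, 61731, 79920 and 75121 CPM at P14, a 909-fold rise of the mean (9.83 ± 0.31, edgeR adjusted p = 2.32e-08). This was the highest log2 change of the 17435 genes tested. *Myh1*, the type IIx chain, was found at 189.8, 302, 242 and 229 CPM at P1 and 14563, 15971, 11768 and 12369 CPM at P14 (5.83 ± 0.21, edgeR adjusted p = 3.96e-08), and *Myh2*, the type IIa chain, rose by 5.30 on the log2 scale. The slow chain *Myh7* was at 551, 652, 514 and 595 CPM at P1 and 718, 786, 553 and 444 CPM at P14. Its groups overlapped and it was not called, with a log2 change of 0.11 that became -0.63 with library totals.

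Divided by exon length, the levels can be set side by side as shares of the 9 heavy chain genes. The length is the union of all annotated exons of a gene, not the length of its message. It was 11772 bases for *Myh8*, 8616 for *Myh7* and 6016 for *Myh4*. A longer union lowers the share of a gene, so the shares depend on the annotation. *Myh3* and *Myh8* together made up 93.4% to 93.7% of heavy chain RNA per kilobase at P1 and 0.0765% to 0.487% at P14. *Myh1*, *Myh2* and *Myh4* made up 2.66% to 3.06% at P1 and 98.8% to 99.5% at P14. *Myh4* alone went from 0.509% to 0.748% at P1 to 77.2% to 85.9% at P14, and *Myh7* from 3.01% to 3.64% to 0.348% to 0.686%. All 4 differences reached p = 0.0286 in the exact permutation test. The summed share of the 9 genes in all counts rose as well, from 2.56% to 3.11% at P1 to 6.21% to 7.02% at P14. The CPM of *Myh7* overlapped between the ages while its share of the heavy chains per kilobase did not.

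**Figure D2:**
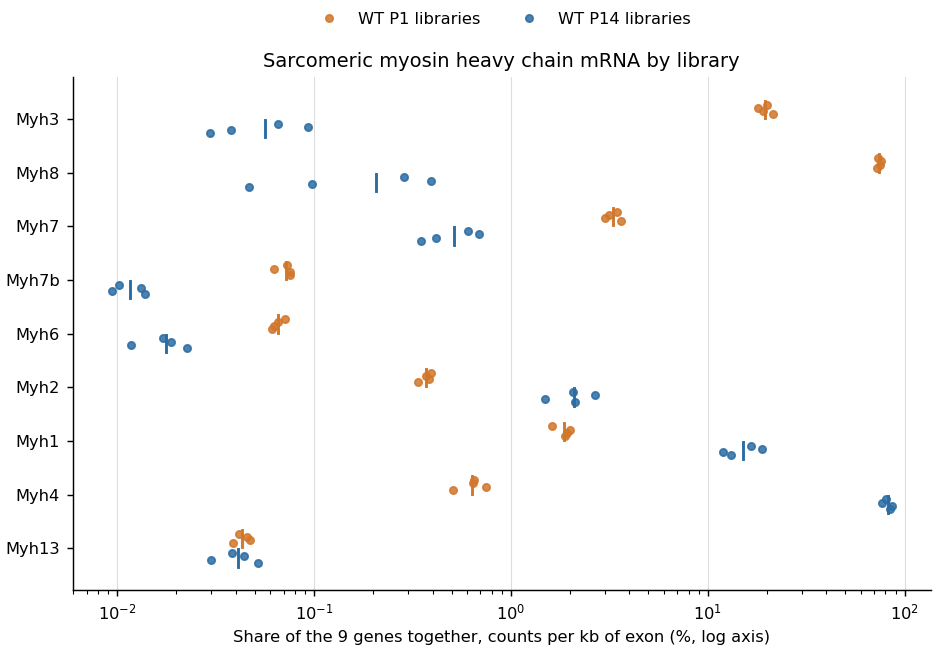
Share of each of 9 sarcomeric myosin heavy chain genes in their summed level per kilobase of exon (%, log axis), with 1 point per library, P1 in orange and P14 in blue, and bars at the means. *Myh8* and *Myh3* lead at P1 (72.1% to 75.6% and 18.1% to 21.4%), and *Myh4* and *Myh1* lead at P14 (77.2% to 85.9% and 12% to 18.9%).

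Of the light chains, kinases and binding proteins of the thick filament, 7 of 11 tested genes rose and 2 fell (5 and 3 with library totals). *Myl4*, the light chain of embryonic muscle and atria, measured 258, 326, 263 and 301 CPM at P1 and 18.7, 17.6, 17.5 and 15.6 CPM at P14 (-4.04 ± 0.10, edgeR adjusted p = 8.83e-09), with no overlap. The fast light chains *Myl1* and *Mylpf* rose by 1.70 and 1.56. *Mylk2*, the kinase that phosphorylates the fast regulatory light chain, rose by 2.73. *Mybpc2*, the fast myosin-binding protein C, was at 376 ± 74.3 CPM at P1 and 6156 ± 1274 CPM at P14 (SD, n = 4; 4.03 ± 0.21, edgeR adjusted p = 2.28e-07), and *Mybph*, a related binding protein, rose by 2.16. *Myl3*, the slow essential light chain, rose by 0.70 with TMM but had -0.07 with library totals. In the promoter windows, 6 of 10 genes of this list hold an E-box (60.0%) against 14.7% of all genes. Other lists differed, with 44.4% for triad and 43.8% for thin filament genes. Lists that mostly fell differed too, with 44.4% for cartilage and bone (4 of 9) and 33.3% for keratinocyte genes (4 of 12). Cell cycle genes had 5.56% and matrix genes 11.5%. The heavy chain list held it in 11.1%, membrane excitability in 14.3% and the myogenic list in 6.25%. Of all genes called higher, 15.3% hold it.

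In the thin filament, 13 of 20 tested genes rose and 4 fell (8 and 5 with library totals), with a median of 1.04. Fast troponins rose together, *Tnnt3* by 1.95, *Tnni2* by 1.76 and *Tnnc2* by 1.68, all 3 subunits of the calcium switch of fast fibres. Of the slow and cardiac forms, *Tnni1*, the slow troponin I, fell by 1.65 on the log2 scale. *Tnnt2*, the cardiac troponin T that fetal skeletal muscle also makes, stood at 112, 148, 122 and 132 CPM at P1 and 19.6, 20.4, 15.9 and 15.1 CPM at P14 (-2.85 ± 0.12, edgeR adjusted p = 9.47e-08), with no overlap. *Neb*, the giant ruler of the thin filament, rose by 2.43, and *Tpm1* and *Tpm2*, tropomyosins, by 2.24 and 1.71. *Acta1*, the skeletal actin, was at 16666, 22125, 18695 and 18464 CPM at P1 and 34759, 34265, 38356 and 44061 CPM at P14 (1.00 ± 0.18, edgeR adjusted p = 0.000565). It was not called with library totals (0.22, edgeR adjusted p = 0.0577) or with a block for replicate number (edgeR adjusted p = 0.0156). *Actc1*, the cardiac actin of fetal muscle, was found at 2946, 3968, 3591 and 3619.8 CPM at P1 and 5456, 4907, 6913 and 4849 CPM at P14 and was called higher at 0.65, a sign that turned to -0.12 with library totals. Without P1 replicate 1 or P14 replicate 3 its change was 0.57 or 0.53 and was not called. Per kilobase, *Acta1* was 84.3% to 85.6% at P1 and 85.4% to 90.5% at P14 of the sum of both actins, and the groups overlapped.

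At the Z-disc and the M-band, 14 of 20 tested genes rose and 3 fell (9 and 5 with library totals). *Actn3*, the fast α-actinin, was at 547, 773, 659.6 and 605 CPM at P1 and 8029, 6932, 9366 and 10602 CPM at P14 (3.76 ± 0.18, edgeR adjusted p = 1.6e-07). Its share in the sum with *Actn2* per kilobase was 33.1% to 34.7% at P1 and 83.3% to 88.1% at P14. *Myoz3* and *Myoz1*, partners of calcineurin at the Z-disc, rose by 3.53 and 1.32, and *Myoz2*, the slow and cardiac member, fell by 0.78. The M-band gene *Myom2* rose by 1.74, and *Nrap*, a scaffold of assembling myofibrils counted with the thin filament, rose by 1.82.

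**Figure D3:**
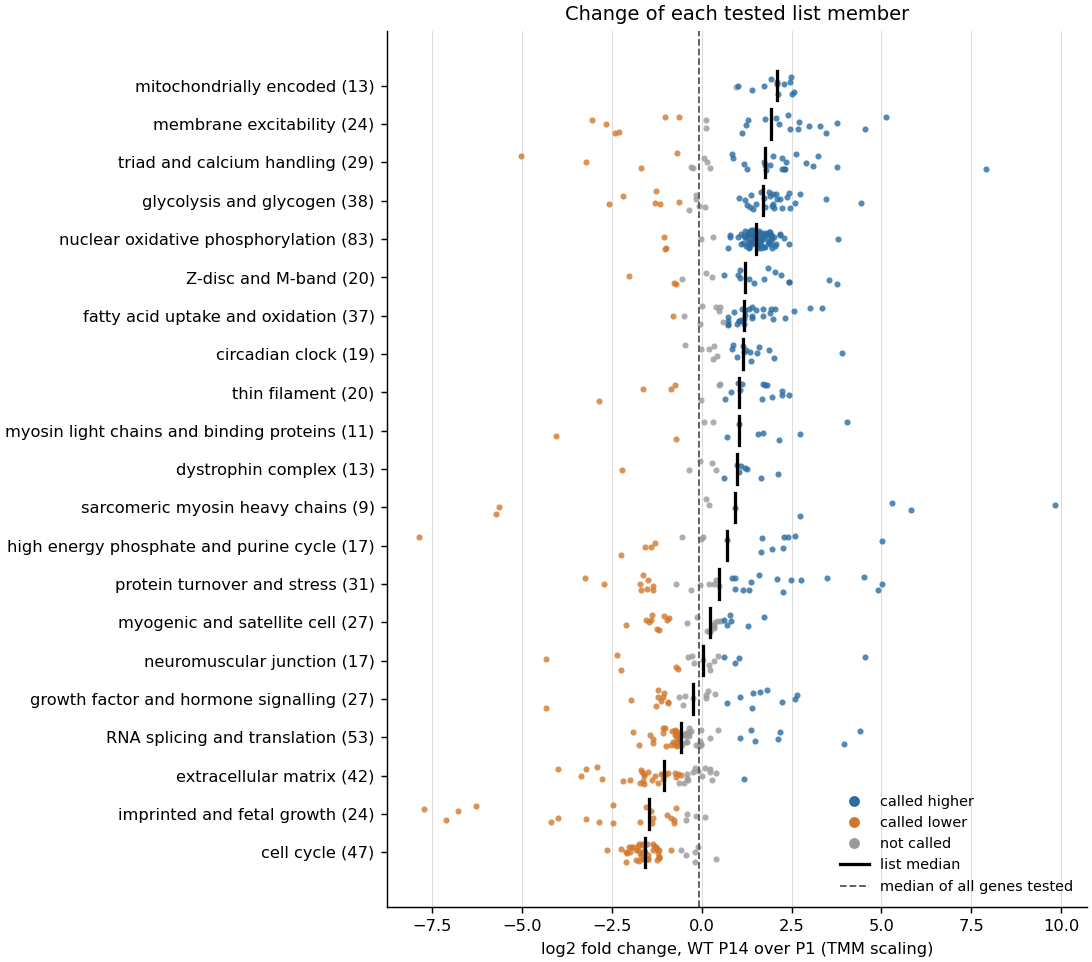
Log2 change from P1 to P14 (TMM scale) of each tested member of 21 gene lists, 1 point per gene, ordered by the median of the list, with a dashed line at the median of all genes tested (-0.08). Mitochondrially encoded genes, membrane excitability and triad genes lie at the high end (medians 2.11, 1.92 and 1.76) and imprinted growth and cell cycle genes at the low end (-1.48 and -1.56). With library totals all points lie lower, and the median of all genes is -0.85.

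At the neuromuscular junction the receptor changed its subunit. The muscle acetylcholine receptor is a pentamer in which the fetal γ subunit (*Chrng*) is replaced by the adult ε subunit (*Chrne*). The 250 bases before both starts (GRCm38.p6, *Chrng* at chr1:87205561-87205810 on the plus strand, *Chrne* at chr11:70619195-70619444 on the minus strand) are shown because the pair exchanged almost fully. Capitals mark the E-box CAGCTG and, in *Chrne*, the N-box CCGGAA, known from genes active in nuclei below the synapse.
Chrng: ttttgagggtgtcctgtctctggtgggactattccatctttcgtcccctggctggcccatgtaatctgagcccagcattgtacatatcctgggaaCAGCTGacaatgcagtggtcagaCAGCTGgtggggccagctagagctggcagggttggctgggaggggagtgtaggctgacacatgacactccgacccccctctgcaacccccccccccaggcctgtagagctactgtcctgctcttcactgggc
Chrne: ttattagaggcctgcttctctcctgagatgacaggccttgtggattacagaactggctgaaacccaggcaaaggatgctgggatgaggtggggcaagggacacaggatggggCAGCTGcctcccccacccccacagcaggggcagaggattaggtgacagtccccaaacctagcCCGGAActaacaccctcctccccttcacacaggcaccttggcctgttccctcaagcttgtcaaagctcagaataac
*Chrng* holds 2 E-boxes, at 155 to 150 and 132 to 127 bases before the start. *Chrne* holds 1 E-box, at 138 to 133, and 1 N-box, at 76 to 71. Of the 12 junction genes with a promoter window, 6 hold an E-box (50.0%) against 14.7% of all genes and 15.3% of those called higher. An N-box is held by 2 of them (16.7%). The N-box share was 13.6% of all genes, 24.1% of those called higher, 15.5% of those called lower and 26.0% of those not called.

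*Chrng* measured 33.8, 40.7, 38.9 and 45.4 CPM at P1 and 2.45, 2.44, 1.81 and 1.08 CPM at P14, a 20.4-fold fall (-4.33 ± 0.21, edgeR adjusted p = 1.64e-07). *Chrne* stood at 1.15, 1.42, 1.21 and 0.910 CPM at P1 and 25.9, 25, 31.2 and 27.5 CPM at P14, a 23.4-fold rise (4.55 ± 0.14, edgeR adjusted p = 2.31e-08). Neither overlapped, and the share of *Chrne* in the sum of both per kilobase was 4.70% to 7.90% at P1 and 96.2% to 98.4% at P14. The shared subunits moved less and in different directions: *Chrnb1* rose by 1.04, *Chrnd* fell (-2.24 ± 0.14, edgeR adjusted p = 4.92e-07), and *Chrna1*, which binds acetylcholine, was at 70.2, 96.1, 73.8 and 75.4 CPM at P1 and 73.5, 78.2, 68.2 and 52.7 CPM at P14, overlapping and not called (-0.21 ± 0.14, edgeR adjusted p = 0.173). Of the 12 genes of clustering and synapse, 2 rose and 3 fell (0 and 6 with library totals). *Musk*, the receptor kinase that gathers the receptors, fell by 0.73, *Lrp4*, its partner that binds agrin, had -0.39 and was not called, and *Ncam1*, an adhesion molecule carried over the whole surface of immature fibres, was found at 81.7, 113, 107 and 112 CPM at P1 and 21.3, 23.3, 20.7 and 14.9 CPM at P14 (-2.37 ± 0.15, edgeR adjusted p = 6.63e-07). On the whole list, 4 of 17 tested genes rose and 5 fell (1 and 9 with library totals), with a median of 0.04.

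Genes of the triad and of calcium handling rose in most cases, with a median of 1.76: 20 of 29 tested genes rose and 4 fell (16 and 8 with library totals). Their summed share was 1.29% to 1.53% of counts at P1 and 4.91% to 6.0% at P14. *Pvalb*, parvalbumin, the soluble calcium buffer of fast fibres, was at 46.4, 72.9, 59.2 and 40.6 CPM at P1 and 11386, 10585, 14707 and 16343 CPM at P14, a 242-fold rise (7.92 ± 0.29, edgeR adjusted p = 4.39e-08). *Sln*, sarcolipin, a small inhibitor of the calcium pump, measured 311, 406, 319.7 and 356 CPM at P1 and 13.2, 14.4, 7.00 and 8.03 CPM at P14, a 32.7-fold fall (-5.03 ± 0.25, edgeR adjusted p = 1.65e-07). These were the largest rise and fall of the list, and neither overlapped. *Atp2a1*, the fast calcium pump, was at 3475 ± 417 CPM at P1 and 32626 ± 7385 CPM at P14 (SD, n = 4; 3.23 ± 0.22, edgeR adjusted p = 8.35e-07), while *Atp2a2*, the slow pump, was not called (-0.23).

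Of the 13 genes of voltage sensing and release, 11 rose and 1 fell (10 and 1 with library totals). Of the 9 pumps and buffers 6 rose and 2 fell (5 and 3), and of the 7 T-tubule genes 3 rose and 1 fell (1 and 4), with a median of 0.15. *Ryr1*, the release channel of the triad, rose (2.90 ± 0.15, edgeR adjusted p = 2.24e-07), *Cacna1s*, the voltage sensor that opens it, by 2.63, and *Trdn*, triadin, which ties the channel to calsequestrin, by 3.78. The only one that fell was *Ryr3*, the release channel of newborn muscle, at 48.8, 56.2, 46.3 and 41.0 CPM at P1 and 5.37, 8.24, 4.77 and 2.24 CPM at P14 (-3.21 ± 0.30, edgeR adjusted p = 7.34e-06). Calsequestrin, the calcium store, changed its isoform: *Casq1* rose by 3.11, *Casq2* fell by 1.69, and the share of *Casq1* in the pair per kilobase was 54.8% to 56.5% at P1 and 95.6% to 98.2% at P14.

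*Mtm1*, the gene disrupted in the KO mice of the series, encodes a phosphatase of phosphoinositides and is counted here with the T-tubule genes. In WT muscle it stood at 6.19, 6.29, 6.98 and 6.05 CPM at P1 and 23.6, 22.1, 23.7 and 25.1 CPM at P14, a 3.71-fold rise (1.89 ± 0.07, edgeR adjusted p = 4.74e-08). The 4 values at each age lay close together and far from those of the other age. *Bin1*, which bends membranes into T-tubules, had values of 488, 621, 518 and 536 CPM at P1 and 587, 575, 573 and 659.6 CPM at P14, overlapping and not called, with 0.15 that turned to -0.625 with library totals.

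Channels and pumps of the fibre membrane were among the lists with the most calls: 16 of 24 tested genes rose and 6 fell (13 and 7 with library totals), with a median of 1.92. *Scn4a*, the adult sodium channel of muscle, rose by 2.46. *Clcn1*, the chloride channel that damps excitability, was at 11.6, 13.4, 12.8 and 10.1 CPM at P1 and 152, 144, 188 and 164 CPM at P14 (3.76 ± 0.12, edgeR adjusted p = 2.32e-08). The voltage-gated potassium channel *Kcna7* rose by 4.55. *Kcnn3*, a calcium-activated potassium channel that denervated fibres re-express, measured 10.1, 12.8, 10.6 and 11.9 CPM at P1 and 13.9, 14.8, 12.4 and 7.81 CPM at P14, overlapping and not called, with 0.11 that became -0.64 with library totals. *Atp1b4*, a sodium pump β family member abundant around birth, stood at 965, 1212, 973 and 966 CPM at P1 and 286, 355, 127 and 67.1 CPM at P14 (-2.30 ± 0.45, edgeR adjusted p = 0.000943).

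Genes of glycolysis and glycogen rose: 27 of 38 tested genes rose and 6 fell (22 and 11 with library totals), and the list took 1.96% to 2.31% of counts at P1 and 3.36% to 4.54% at P14. The highest changes were in phosphorylase kinase, which links calcium to glycogen breakdown. *Phkg1*, its catalytic subunit, was at 20.7, 26.7, 24.6 and 21.1 CPM at P1 and 448, 410.1, 531 and 628 CPM at P14 (4.44 ± 0.16, edgeR adjusted p = 3.83e-08), and *Phka1*, a regulatory subunit, rose by 3.46. *Pygm*, muscle glycogen phosphorylase, rose by 2.18, *Ppp1r3a*, which brings a phosphatase to glycogen, by 2.46, and *Gpd1*, the glycerol phosphate shuttle enzyme of the cytosol, by 2.75. *Slc2a4*, the insulin-responsive glucose carrier, rose by 1.96, and *Slc2a3*, a carrier of fetal tissue, fell by 1.29. Muscle isoforms gained on the ubiquitous ones: *Pgam2* rose by 1.91 and *Pgam1* fell by 1.16, and *Eno3* rose by 1.36 whereas *Eno1* was not called (-0.09).

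Genes of fatty acid uptake and oxidation rose as well, where 29 of 37 tested genes rose and 1 fell (14 and 4 with library totals). *Fabp3*, the fatty acid carrier of the cytosol, rose by 2.56, *Cpt1b*, the gate of fatty acids into mitochondria, by 1.39, *Acadm*, a dehydrogenase of β-oxidation, by 1.17, and *Cd36*, the uptake receptor, by 0.90. Among the regulators, *Esrrg*, an oestrogen-related receptor, rose by 3.02 and *Ppargc1a*, the coactivator of mitochondrial growth, by 1.97. *Ucp3*, an uncoupling protein of fast muscle, rose by 2.31. *Pdk4*, the kinase that turns off pyruvate oxidation in fasting, had the largest log2 change of the list and the widest spread at P14: it was found at 132, 140.2, 143 and 168 CPM at P1 and 699.7, 657, 1478 and 3078 CPM at P14 (3.34 ± 0.48, edgeR adjusted p = 0.000124). P14 replicate 4 was the highest, and the lowest P14 value was still above all P1 values.

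Oxidative phosphorylation rose nearly as a block. Of nuclear genes, 78 of 83 tested genes rose and 3 fell (56 and 4 with library totals), with a median of 1.52. Complex I rose in 37 of 38 genes (28 with library totals), complex II in 4 of 4 (3), complex III with cytochrome c in 10 of 10 (7), complex IV in 12 of 15 (9) and complex V in 15 of 16 (9). *Ndufb3*, an accessory subunit of complex I, rose by 2.29, and *Ndufa4l2*, a gene known from hypoxic cells and counted here with complex I, was at 15.8, 15.7, 16.5 and 15.8 CPM at P1 and 14.3, 16.6, 15.4 and 15.9 CPM at P14, overlapping and not called. The 3 genes that fell were *Cox6a1*, *Cox8a* and *Atpif1*. The first 2 of them are the ubiquitous isoforms of subunits with a muscle isoform, and the third encodes an inhibitor of the ATP synthase. Their muscle counterparts rose, *Cox6a2* by 1.96 and *Cox8b* by 2.44. *Cox7a1*, the muscle isoform of another subunit, measured 22.5, 28.8, 20.3 and 17.9 CPM at P1 and 286, 254, 305 and 392 CPM at P14 (3.79 ± 0.18, edgeR adjusted p = 1.53e-07), whereas its ubiquitous partner *Cox7a2* rose by 0.80. Per kilobase *Cox7a1* was 22.3% to 27.0% at P1 and 69.3% to 74.4% at P14 of that pair. In the promoter windows 20 of 68 nuclear genes hold the N-box letters CCGGAA (29.4%), against 13.6% of all genes, 24.1% of all genes called higher and 26.0% of those not called.

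Messenger RNAs of the mitochondrial genome rose with those of the nuclear genes, and mitochondrial DNA was not measured here. Of 13 messenger RNAs 12 rose and 0 fell (11 and 0 with library totals), and their share was 2.84% to 3.81% of counts at P1 and 7.65% to 8.99% at P14. *mt-Co1*, a core subunit of complex IV, stood at 10502, 11115, 10056 and 8421 CPM at P1 and 37515, 38347, 43637 and 51335 CPM at P14 (2.09 ± 0.19, edgeR adjusted p = 5.5e-06). *mt-Nd4* and *mt-Nd6*, subunits of complex I, rose by 2.52 and 2.56, *mt-Co3* by 2.48 and *mt-Cytb*, of complex III, by 2.11. The gene not called was *mt-Co2*, at 1663, 3528, 1842 and 1265 CPM at P1 and 3791, 3136, 3587 and 5492 CPM at P14 (0.95 ± 0.31, edgeR adjusted p = 0.0179), whose groups overlapped. Without P1 replicate 2 it was called too, and all 13 rose.

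Among genes that buffer ATP and oxygen, 9 of 17 tested genes rose and 5 fell (8 and 8 with library totals). *Mb*, myoglobin, was at 21.1, 23.2, 15.8 and 14.8 CPM at P1 and 469, 492, 559.6 and 902 CPM at P14, a 32.3-fold rise (5.01 ± 0.27, edgeR adjusted p = 2.35e-07). *Ckm*, the muscle creatine kinase, rose by 1.96 and *Ckmt2*, the mitochondrial kinase of muscle, by 2.28, and *Ckb*, the brain form, fell (-1.59 ± 0.26, edgeR adjusted p = 0.000319). *Ckmt1*, the ubiquitous mitochondrial kinase, was found at 4.04, 3.49, 9.50 and 4.34 CPM at P1 and 0.0179, 0.0209, 0.0223 and 0.0240 CPM at P14, with the highest value in P1 replicate 3, the library with the most keratinocyte RNA. *Ak1*, adenylate kinase, and *Ampd1*, the muscle AMP deaminase, rose by 2.26 and 2.58, and *Ampd3*, the form of red cells, was not called, with 0.04 that became -0.73 with library totals. *Car3*, carbonic anhydrase of slow fibres and fat, was at 881, 898, 883 and 798 CPM at P1 and 293, 312, 450.1 and 246 CPM at P14 (-1.41 ± 0.17, edgeR adjusted p = 3.43e-05).

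Of the myogenic and satellite cell genes, 6 of 27 tested genes rose and 10 fell (1 and 13 with library totals), shares close to those of all genes (24.7% and 30.4%). *Myog*, the factor of differentiating myoblasts, measured 112, 147, 124 and 137 CPM at P1 and 77.3, 74.7, 62.6 and 35.5 CPM at P14 (-1.06 ± 0.21, edgeR adjusted p = 0.00124). *Myf6*, the factor that mature fibres keep, rose by 0.81 and had 0.03 with library totals. *Myod1*, the determination factor, stood at 27.5, 41.8, 36.6 and 40.2 CPM at P1 and 46.9, 51.4, 49.4 and 31.0 CPM at P14, overlapping and not called, with 0.29 that became -0.46 with library totals. *Six4*, a homeobox factor, rose by 1.75. *Pax7*, the marker of satellite cells, was at 12.6, 18.8, 15.5 and 17.1 CPM at P1 and 13.7, 14.6, 10.6 and 9.18 CPM at P14, overlapping and not called (-0.41 ± 0.17, edgeR adjusted p = 0.0459). *Calcr*, the calcitonin receptor of quiescent satellite cells, rose by 0.80. Both fusion proteins fell: *Mymk*, myomaker, was found at 59.6, 76.3, 63.1 and 70 CPM at P1 and 29.2, 26.0, 23.0 and 12.8 CPM at P14 (-1.56 ± 0.21, edgeR adjusted p = 9.02e-05) and *Mymx*, myomixer, at 13.5, 16.6, 13.8 and 14.9 CPM at P1 and 4.61, 4.21, 3.12 and 1.71 CPM at P14 (-2.10 ± 0.25, edgeR adjusted p = 3.24e-05).

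Cell cycle genes fell, 41 of 47, and 0 rose (46 and 0 with library totals), with a median of -1.56 and a summed share of 0.198% to 0.234% of counts at P1 and 0.0321% to 0.0717% at P14. All 24 mitosis genes fell, 15 of 20 genes of DNA replication and 2 of 3 G1 cyclins (24, 19 and 3 with library totals). The 250 bases before the start of *Cdk1* (chr10:69352913-69353162, minus strand) and of *Top2a* (chr11:99024190-99024439, minus strand; GRCm38.p6) are shown as examples from the mitosis genes, which are known to share the CHR element. Capitals mark TTTGAA and TTCGAA on either strand.
Cdk1: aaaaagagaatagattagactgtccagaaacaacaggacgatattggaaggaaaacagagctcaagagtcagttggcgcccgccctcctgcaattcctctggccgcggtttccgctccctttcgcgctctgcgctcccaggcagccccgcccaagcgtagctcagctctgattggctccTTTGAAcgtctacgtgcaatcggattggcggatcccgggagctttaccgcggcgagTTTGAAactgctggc
Top2a: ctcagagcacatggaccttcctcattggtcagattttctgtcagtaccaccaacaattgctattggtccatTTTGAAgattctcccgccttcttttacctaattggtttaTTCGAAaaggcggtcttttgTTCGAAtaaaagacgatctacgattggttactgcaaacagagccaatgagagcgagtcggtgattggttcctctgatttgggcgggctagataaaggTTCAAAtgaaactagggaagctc
*Cdk1* holds 2 matches, the nearer one 15 to 10 bases before the start, and *Top2a* holds 4, the nearest 23 to 18 before it. Of 19 mitosis genes with a promoter window, 9 hold a match (47.4%), against 19.6% of all genes and 16.3% of all genes called lower.

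*Cdk1*, the kinase that starts mitosis, was at 27.9, 26.1, 27.6 and 29.1 CPM at P1 and 8.68, 11.3, 6.51 and 4.64 CPM at P14 (-1.82 ± 0.22, edgeR adjusted p = 3.93e-05). *Top2a*, which untangles chromosomes, fell by 1.5, *Mki67*, a protein of the surface of dividing chromosomes, by 1.25, and *Ccnb1*, cyclin B1, by 2.01. *Ccne1*, cyclin E1 of the entry into S phase, had the largest fall of the list (-2.63 ± 0.29, edgeR adjusted p = 1.99e-05), and *Rrm2*, which makes deoxynucleotides, fell by 1.18. *Pcna*, the clamp of the DNA polymerase, had -0.44 and *Ccnd1*, cyclin D1, -0.56, and neither was called. P14 replicate 4 had the lowest value of *Cdk1*, and its cell cycle share was 0.0321% against 0.0480% to 0.0717% in the other P14 libraries. The markers of skin, cartilage and macrophages fell with these genes, and their part in the fall was not tested.

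Imprinted and fetal growth genes showed no rise: of 24 tested 0 rose and 20 fell (0 and 23 with library totals), with a median of -1.48. Their share was 4.19% to 4.95% of all counts at P1 and 1.36% to 2.09% at P14. On the TMM scale the summed level was 31445 to 39742 CPM at P1 and 19801 to 25476 CPM at P14. Most of this sum was *H19* at both ages. *Igf2*, the fetal insulin-like growth factor (chromosome 7, 142650766-142666816), measured 5192, 6755, 6183 and 6351 CPM at P1 and 2694, 2757, 2196 and 1536 CPM at P14 (-1.41 ± 0.19, edgeR adjusted p = 8.68e-05). *H19*, the imprinted RNA next to it (142575529-142578143), stood at 17549, 23148, 18895 and 19254 CPM at P1 and 19469.6, 19009, 15931 and 16078 CPM at P14, overlapping and not called (-0.16 ± 0.16, edgeR adjusted p = 0.376). Both lie on the minus strand, and the difference between their changes was not tested. *Dlk1*, an inhibitor of adipocyte and muscle differentiation (chromosome 12, 109452823-109463336), was at 1809.8, 2262, 2092 and 2102 CPM at P1 and 162, 185, 101 and 64.9 CPM at P14 (-4.01 ± 0.32, edgeR adjusted p = 2.3e-06). In the same cluster, *Meg3*, a long noncoding RNA (109541001-109571726), fell by 1.54, and *Rtl1*, a retrotransposon-derived gene (109589193-109600330), was found at 293, 356, 243 and 255 CPM at P1 and 2.64, 6.78, 0.491 and 0.216 CPM at P14 (-6.80 ± 0.76, edgeR adjusted p = 2.26e-05).

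*Peg3* and *Mest*, paternally expressed genes, fell by 1.38 and 2.47, and *Igf2r*, the receptor that clears Igf2, by 0.85. Of 7 fetal regulators of RNA and chromatin 6 fell (6 with library totals). *Igf2bp1*, which binds fetal growth messages, was at 9.33, 10.9, 11.6 and 11.2 CPM at P1 and 0.125, 0.167, 0.112 and 0.144 CPM at P14 (-6.28 ± 0.15, edgeR adjusted p = 7.99e-09), and *Igf2bp2* fell by 2.85. *Hmga2*, a chromatin protein of fetal growth, measured 5.36, 6.03, 6.35 and 6.86 CPM at P1 and 0.0179, 0.0626, 0 and 0.0962 CPM at P14 and was called lower, with only a few counts per library at P14. *Lin28b*, which blocks the maturation of let-7 microRNAs, was low at P1 and at 0 in all P14 libraries, at least 6.27-fold lower.

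Of the growth factor and hormone genes, 9 of 27 tested genes rose and 10 fell (7 and 15 with library totals). *Igfbp2*, a binding protein of the fetal IGF system, stood at 47.6, 47.4, 49.1 and 47.8 CPM at P1 and 2.32, 2.96, 2.99 and 1.18 CPM at P14 (-4.34 ± 0.22, edgeR adjusted p = 1.75e-07). *Igf1* was at 168, 197, 179 and 193 CPM at P1 and 94.6, 103, 95.7 and 56.3 CPM at P14 (-1.08 ± 0.17, edgeR adjusted p = 0.000208), and *Ghr*, the growth hormone receptor, rose by 1.40. *Thrb*, the thyroid hormone receptor β, rose by 2.61. The deiodinases *Dio2* and *Dio3*, which activate and inactivate thyroid hormone, were low at both ages, with overlapping groups and no call (means of 3.96 and 5.14 CPM for *Dio2* and of 0.223 and 0.145 CPM for *Dio3*). With library totals the sign of *Dio2* turned from 0.38 to -0.36, and without P14 replicate 4 it was called higher (0.65). *Mstn*, myostatin, which limits muscle growth, rose by 0.72 with TMM but had -0.05 with library totals.

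Clock genes rose in 13 of 19 cases and 0 fell (6 and 2 with library totals). *Bhlhe41*, a repressor of the clock, was at 3.76, 4.70, 3.69 and 3.35 CPM at P1 and 57.7, 61.6, 66.2 and 44.3 CPM at P14 (3.89 ± 0.15, edgeR adjusted p = 5.03e-08). *Nr1d2* and *Per3* rose by 2.02 and 1.88, and *Arntl* and *Nr1d1* by 0.99 and 1.54. *Dbp*, an output gene, rose by 1.61. The labels give no time of day for either age, and a difference in the hour of collection and a difference of age cannot be told apart for these genes.

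Matrix genes fell: 1 of 42 tested genes rose and 27 fell (0 and 37 with library totals), with a median of -1.05, and the list took 4.90% to 6.43% of counts at P1 and 1.08% to 1.94% at P14. *Col1a1*, the main chain of collagen I, measured 10738, 6816, 8041 and 10964 CPM at P1 and 3211, 3504, 4585 and 1787 CPM at P14 (-1.48 ± 0.28, edgeR adjusted p = 0.000817), and *Col3a1* fell by 0.93. *Col12a1*, a collagen of the fibre surface and tendon, fell (-3.21 ± 0.28, edgeR adjusted p = 4.39e-06). *Tnc*, tenascin C, stood at 304, 233, 254 and 286 CPM at P1 and 26.6, 32.5, 31.9 and 13.2 CPM at P14 (-3.37 ± 0.26, edgeR adjusted p = 2.01e-06), *Fbn2*, the fibrillin of fetal microfibrils, at 205, 199, 209 and 192 CPM at P1 and 13.6, 14.7, 13.8 and 7.81 CPM at P14 (-4.01 ± 0.18, edgeR adjusted p = 1.04e-07), and *Postn*, periostin, fell by 2.77. *Eln*, elastin, fell by 0.59, close to the fold threshold, and was not called without P1 replicate 1, P1 replicate 3, P14 replicate 3 or P14 replicate 4 (-0.58 to -0.51). Of 11 genes of the basement membrane 0 rose and 2 fell (0 and 7 with library totals). *Col4a1* and *Lama2*, collagen IV and the laminin chain lost in a congenital dystrophy, were not called, with 0.23 and 0.09, which became -0.54 and -0.67 with library totals. P14 replicate 4 had a matrix share of 1.09% against 1.88% to 1.94% in the other P14 libraries, and without it 25 matrix genes fell. Cartilage, bone, tendon and skin markers fell beside the matrix genes, and their part was not tested.

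In the dystrophin complex, which anchors the fibre to that matrix, 8 of 13 tested genes rose and 1 fell (2 and 3 with library totals), and the share was 0.168% to 0.193% of counts at P1 and 0.165% to 0.201% at P14 (exact permutation test, p = 0.629). *Dmd*, dystrophin, rose by 1.04, and *Sgca*, a sarcoglycan, by 1.66. *Sntb1*, β1-syntrophin, was at 108, 158, 137 and 133 CPM at P1 and 35.3, 34.9, 25 and 18.7 CPM at P14 (-2.23 ± 0.20, edgeR adjusted p = 5.98e-06). *Nos1*, the nitric oxide synthase bound to the complex, was found at 19.6, 25.4, 19.6 and 19 CPM at P1 and 24.8, 22.1, 31.7 and 31.0 CPM at P14, overlapping and not called, with 0.39 that became -0.39 with library totals.

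Among genes of translation, the RNA of whole muscle shifted to the muscle paralogues. *Eef1a1*, the ubiquitous elongation factor, was at 5759, 5650.5, 4902 and 5363 CPM at P1 and 1759, 1785, 1507 and 1418 CPM at P14 (-1.74 ± 0.12, edgeR adjusted p = 1.05e-06), and *Eef1a2*, its form in muscle and neurons, at 128, 171, 168 and 142 CPM at P1 and 2167, 2006, 2513 and 2799.5 CPM at P14 (3.96 ± 0.15, edgeR adjusted p = 5.04e-08). Per kilobase *Eef1a2* was 2.59% to 3.93% at P1 and 57.3% to 70.3% at P14 of the pair. *Rpl3l*, the muscle paralogue of ribosomal protein L3, rose (4.41 ± 0.16, edgeR adjusted p = 3.62e-08) and *Rpl3* fell (-1.90 ± 0.10, edgeR adjusted p = 2.41e-07), and *Rpl3l* was 6.76% to 10.2% at P1 and 84.7% to 90.4% at P14 of that pair. Of 36 cytosolic ribosomal protein genes 0 rose and 23 fell (0 and 36 with library totals), and they took 2.03% to 2.37% of counts at P1 and 0.803% to 0.913% at P14. Of 12 splicing regulators 5 rose and 2 fell (4 and 5 with library totals). *Rbfox1* and *Mbnl1*, which set adult muscle exons, rose by 2.12 and 2.18, and *Ptbp1*, a repressor of tissue-specific exons, and *Mbnl3*, the family member of precursors, fell by 1.36 and 1.44. *Celf2* had 0.23, was not called and became -0.54 with library totals.

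Set side by side are 26 pairs of an early and a late paralogue, chosen after their values were seen and given without a test. They show how far the RNA of whole muscle shifted to the late gene. Some early genes, such as *Eef1a1*, are ubiquitous, and the part of other cells in each shift was not tested. The lengths were again unions of annotated exons, such as 4163 bases for *Chrng* and 1690 for *Chrne*. The size of each share therefore depends on the annotation. In 25 of 26 pairs the share of the late gene at P14 lay above all P1 values, the exception being *Acta1* with *Actc1*. The shift was nearly full for *Chrne* (96.2% to 98.4% at P14) and *Casq1* (95.6% to 98.2%). It was part way for *Cox7a1* (69.3% to 74.4%), *Eef1a2* (57.3% to 70.3%) and *Tuba4a*, an α-tubulin paired with *Tuba1a* (9.94% to 13.3% at P1 and 49.2% to 69.9% at P14). Other late genes held most of their pair already at P1, such as *Ryr1* (89.9% to 90.7% at P1 and 99.7% to 99.9% at P14 of its sum with *Ryr3*).

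**Figure D4:**
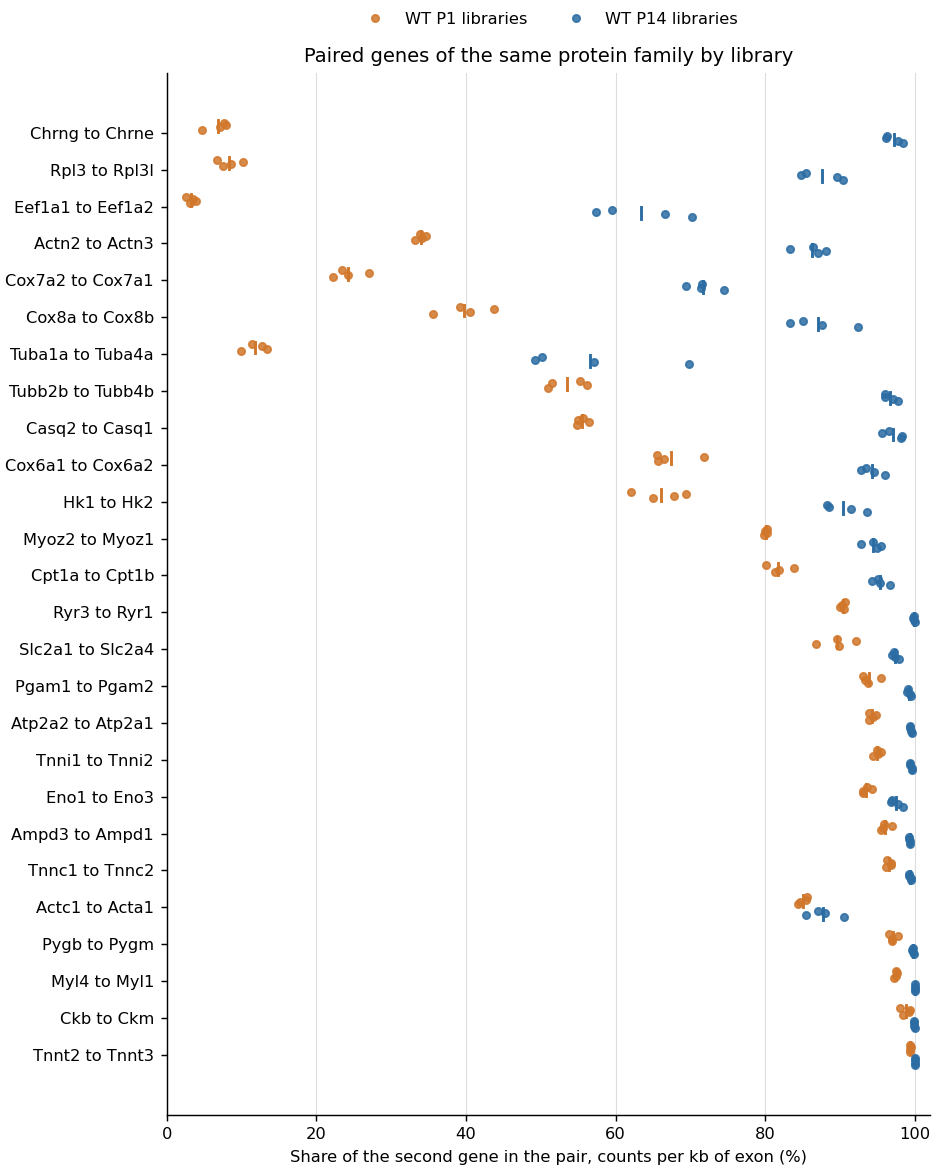
Share of the later gene in the summed level per kilobase of 26 pairs of related genes (%), 1 point per library with P1 in orange and P14 in blue, ordered by the gain. *Chrne* gained most, from 4.70% to 7.90% to 96.2% to 98.4%, and *Acta1* is the later gene whose groups overlap.

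Of 11 ubiquitin ligase and FoxO genes 9 rose and 0 fell (4 and 1 with library totals). *Fbxo32*, atrogin-1, measured 28.1, 27.5, 25.6 and 31.3 CPM at P1 and 91.0, 68.6, 130.1 and 345 CPM at P14 (2.50 ± 0.46, edgeR adjusted p = 0.000636), with P14 replicate 4 far above the others and no overlap, and *Trim63*, MuRF1, at 26.1, 31.8, 29.4 and 27.9 CPM at P1 and 151, 123, 147 and 366 CPM at P14 (2.77 ± 0.33, edgeR adjusted p = 3.51e-05). *Trim55*, a related sarcomeric protein, rose by 0.93, and *Fbxo40*, which acts on insulin receptor signalling, by 4.52. *Ankrd23*, a titin-binding ankyrin repeat protein, stood at 36.9, 74.0, 54.7 and 46.4 CPM at P1 and 1353, 1156, 1767 and 2607 CPM at P14 (5.02 ± 0.33, edgeR adjusted p = 7.15e-07). The stretch genes *Ankrd1* (-0.70 ± 0.25, edgeR adjusted p = 0.0272) and *Xirp1* (-0.06 ± 0.15, edgeR adjusted p = 0.729) overlapped and were not called, although *Ankrd1* was called lower without P1 replicate 1 or without P14 replicate 4 (-0.87 each). Tubulin genes of growing cells fell, *Tubb2b* (-3.24 ± 0.27, edgeR adjusted p = 2.93e-06) and *Tubb6* by 1.71, and *Tuba8*, the muscle and testis form, rose (4.92 ± 0.30, edgeR adjusted p = 5.33e-07). On the whole list, 15 of 31 tested genes rose and 9 fell (10 and 12 with library totals).

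Outside the lists, the genes with the highest log2 change held several transcripts of little-known function. *Nctc1*, a noncoding gene (chromosome 7, 142544609-142558596, minus strand) downstream of *H19*, was at 0.0988, 0.119, 0.194 and 0.0963 CPM at P1 and 91.8, 81.1, 120.3 and 140.3 CPM at P14 (9.71 ± 0.28, edgeR adjusted p = 1.63e-08). *H19*, which was not called, lies on the chromosome between *Nctc1*, which rose, and *Igf2*, which fell. *Myhas* (chromosome 11, 67211256-67237573, minus strand) lies between and across fast myosin genes, overlaps *Myh1*, and was found at 0.136, 0.344, 0.149 and 0.225 CPM at P1 and 71.1, 62.1, 80.0 and 100.2 CPM at P14. *Plet1os* and *Foxo6os*, also antisense genes, rose by 6.92 and 6.75. The strand setting of the counting is not given in the sources used here, so that reads of these antisense genes and of their partners could not be told apart. *Klhl33*, a kelch protein, was at 7.84, 2.95, 2.29 and 5.42 CPM at P1 and 737, 661, 845 and 1029 CPM at P14 (7.47 ± 0.43, edgeR adjusted p = 3.54e-07), *Smco1*, a small membrane protein, rose by 5.82 and *Ttbk1*, a tubulin kinase, by 6.09. The 10 genes with the lowest log2 change were all of skin, led by *Krt5*, *Krt1*, *Flg* and *Hrnr*.

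The later WT ages place the window. From P14 to P21, 848 of 15337 genes (5.53%) were called, 450 (2.93%) higher and 398 (2.6%) lower, and from P21 to P35 368 of 15039 (2.45%). These steps share the P14 or P21 libraries with the step before, so only levels are given here, as CPM scaled over the 16 WT libraries. *Myh8* had means of 14455, 272, 22.7 and 8.24 CPM at P1, P14, P21 and P35, and *Chrng* 32.4, 1.58, 0.348 and 0.386 CPM. *Myh4* had 63.7, 57534, 51318 and 34832 CPM, and *Chrne* 0.956, 22.3, 18.6 and 14.6 CPM. For *Myh4* and *Chrne* the P14 means lay above those of both later ages, and for *Myh8* and *Chrng* the means after P14 were lower again but small beside the step from P1 in CPM. Among the growth genes, *Igf2* had means of 4994, 1863, 411 and 73.3 CPM and *Dlk1* of 1686, 104, 17.9 and 3.80 CPM. *H19* had 16084, 14301, 5793 and 4180 CPM, *Mki67* 96.3, 40.3, 21.2 and 6.94 CPM, and *Mymk* 54.9, 18.5, 2.15 and 3.15 CPM. *Myh7* had 472, 507, 191 and 9.55 CPM, so that its means parted after P14. *Mb* had means of 15.3, 491, 1309 and 3914 CPM. Within the heavy chains, the share of *Myh4* per kilobase ranged from 52.0% to 80.2% at P21 and from 51.5% to 84.2% at P35, and that of *Myh1* reached 14.7% to 45.0% at P35.

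**Figure D5:**
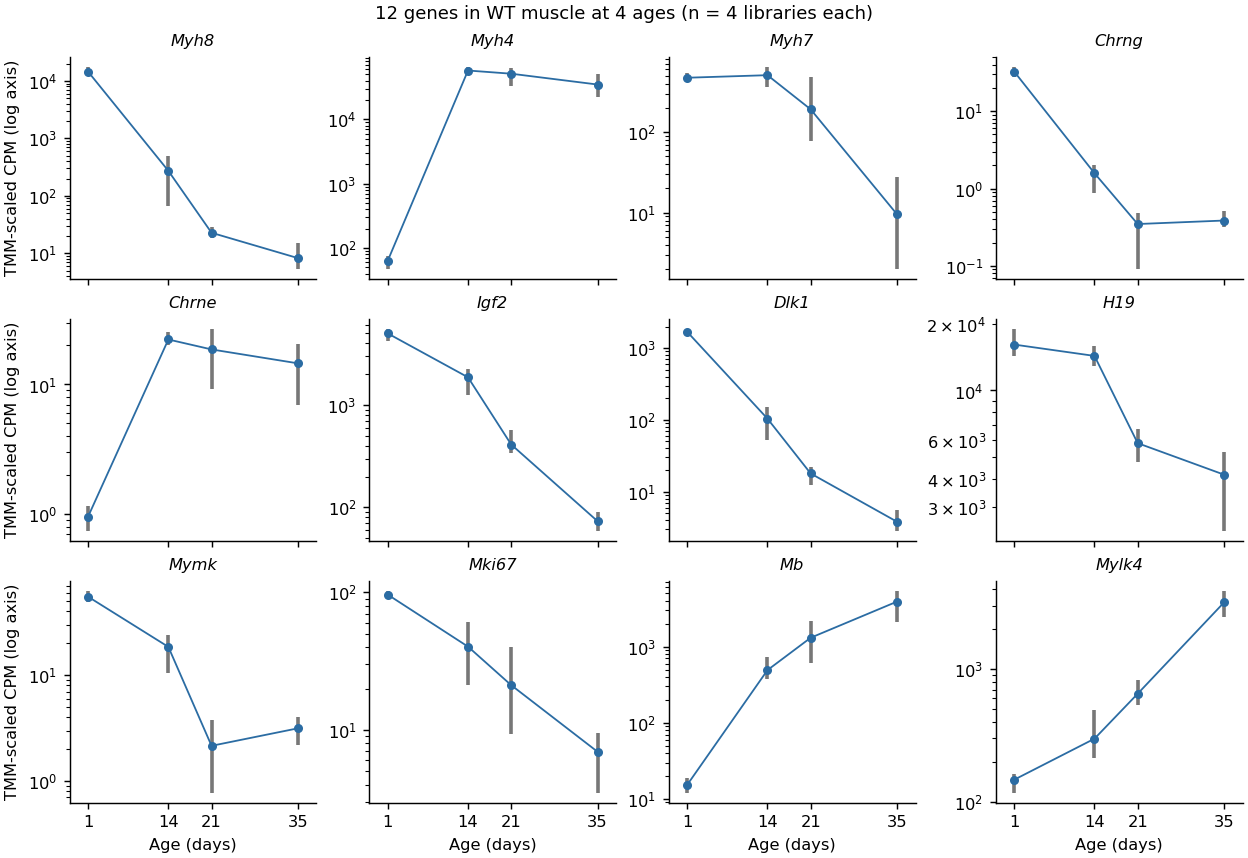
Level (CPM scaled over 16 WT libraries, log axis) of 12 genes at P1, P14, P21 and P35, with points at the mean of 4 libraries and grey bars from the lowest to the highest. *Myh4* and *Chrne* have their highest mean at P14, whereas the means of *Myh8*, *Igf2*, *Dlk1*, *H19* and *Mki67* lie lower at each later age and those of *Mb* and *Mylk4* lie higher.

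The same 2 ages were sampled in *Mtm1* KO muscle, where 9328 of 17719 genes (52.6%) were called between P1 and P14, 4168 higher and 5160 lower. Whether a gene's change differed between the genotypes was tested as an interaction over the 16 libraries. It was called for 8 of 18362 genes (0.0436%) by edgeR at an adjusted p under 0.01, 4 (0.0218%) with a higher and 4 (0.0218%) with a lower change in WT than in KO. *Mtm1* itself was among them, with a change of 1.89 in WT and 0.53 in KO (edgeR adjusted p = 0.00791). The KO change was not called (edgeR adjusted p = 0.0264). It is on the TMM scale, and the KO change with library totals was not computed. In WT the *Mtm1* counts were 475 to 610 at P1 and 1044 to 1321 at P14. In KO they were 209 to 439 and 191 to 297, overlapping between the ages. These were lower than in WT at both ages as the labels say. *Cilp*, a cartilage matrix protein, changed by 0.83 in WT and 3.01 in KO (edgeR adjusted p = 0.00465), *Htra4*, a serine protease, by -0.05 and 1.63, *Eda2r*, a receptor of the tumour necrosis factor family, by 0.52 and 2.03, and *Cpne2*, a copine, by 0.60 and 1.83. With library totals the WT values of *Eda2r* and *Cpne2* turned to -0.26 and -0.16. *Galnt15*, a glycosyltransferase, changed by 2.94 in WT and 1.92 in KO. *Chodl*, chondrolectin, changed by -0.56 and -1.82, and *Ppara*, a receptor of fatty acids, by -0.05 and -1.48. At an unadjusted edgeR p under 0.05, 1380 of the 18362 genes passed, where chance alone would pass a share of about 0.05. At an adjusted p under 0.01, DESeq2 called 52 genes, and edgeR called 0 to 8 when 1 library was left out. For the remaining genes a difference between genotypes was not called at n = 4, which does not show that the changes are equal.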

How the data were processed

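The 8 WT libraries of P1 and P14 were compared by edgeR's quasi-likelihood test on their expected counts, without a block. Per the labels, polyadenylated RNA was made into libraries with a directional kit, and the submitters' processing notes name STAR 2.6.1, RSEM 1.2.22, DESeq2 and GRCm38. The methods of the study name HTSeq as the counter and n = 4 per genotype at P14, P21 and P35. They do not list P1 for RNA sequencing, so n = 4 at P1 rests on the labels. The table deposited by the authors holds expected counts per gene, not scaled between libraries, and 4.731% of its values were not whole numbers. The annotation release and the strand setting of the counting are not given in the sources used here. Of 54838 genes, 54809 had a symbol. Columns of per-library values left unused numbered 0.

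Counts were rounded to whole numbers, filtered with filterByExpr, scaled by TMM (factors of 0.688 to 1.33) and fitted in R 4.3.3 with edgeR 4.0.16. P-values were adjusted by Benjamini-Hochberg over all genes. Shares were compared by a two-sided exact permutation test over 70 assignments. The smallest p it can reach is 0.0286. The labels do not tie replicates to separate animals, so p-values measure only the spread between these samples, which may be technical, and intervals of low counts cover counting error only. Fold changes against a group at 0 used a floor of 3 counts per library. With 17435 genes tested and depths of 58004300 to 70208933 counts per library, 1 count was worth far less than the level of most named genes.

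The 30 gene lists, the key genes and the comparison were chosen with earlier results of these data known. Named genes were fixed key members, the 10 highest and 10 lowest changes, the 10 largest rises and 10 largest falls in mean CPM, 3 genes per list, and all genes of the interaction. *Actn2*, *Atpif1*, *Cox8a*, *Lin28b*, *Myh13*, *Mylk4*, *Ttn*, *Tuba1a*, *Tuba4a* and *mt-Co2* were named after their values were seen. The interaction was fitted over 16 libraries and the later steps over pairs of WT ages. Alternatives were DESeq2 1.42.0, other scalings and filters, larger fits, a block and each replicate left out. Some genes are not reported here. Scripts were tested on simulated data. Promoters came from RefSeq (GRCm38.p6), 250 bases before and 50 after each start, and were matched to 27025 genes. Motifs were searched only in the 250 bases before the start.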

Additional observations from a re-analysis of the deposited data

Results flagged for a closer look

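Values that stood apart from the other 3 libraries of their group were found for 37 of 412 tests of a named gene at an age and for 4 of 66 tests of a list's share. The measure is the gap of the highest or lowest library to its neighbour divided by the range of the group, taken past Dixon's 95% critical value for 4 samples, which chance passes in about 5% of groups, 1 in 20.

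P1 replicate 2 held the largest number, with 17 genes at their highest, among them contractile, energy metabolism and membrane genes. The gap was 0.967 of the range for *Atp1b4* (1212 CPM against a median of 966 CPM in the other 3), 0.949 for *Tpm1*, 0.918 for *Dmd*, 0.908 for *Eno3*, 0.901 for *Tpm2* and 0.9 for *Myoz1*. It was 0.899 for *Nos1*, 0.895 for *Mylpf*, 0.884 for *Ak1* and for *Tnnc2*, 0.854 for *Ccne1*, 0.853 for *Ckmt2*, and 0.849 for *Scn4a*. It was 0.847 for *Cox6a2* and for *Pgam2*, 0.843 for *Trdn* and 0.837 for *Myl1*. The same library had the highest P1 share of muscle-defining genes, 5.50% against a median of 4.62% (gap 0.926), and of membrane excitability genes, 0.304% against 0.273% (gap 0.869). The P14 libraries lay above P1 replicate 2 in both shares.

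P1 replicate 3 was highest for the skin genes *Krt1* (0.878), *Krt10* (0.875) and *Krt5* (0.842) and for the keratinocyte share, 1.21% against a median of 0.486% (gap 0.832). It was also highest for *Ckmt1* (0.858) and *Tuba8* (0.924) and lowest for *Cox8a* (0.895) and *Flt1* (0.847). The part of the skin RNA in the values of *Ckmt1*, *Tuba8*, *Cox8a* and *Flt1* was not tested.

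P14 replicate 4 was highest for *Cd36* (0.959, 786 CPM against a median of 458 CPM), *Arntl* (0.894), *Trim63* (0.886, 366 CPM against 147 CPM), *Tuba4a* (0.86) and *Bin1* (0.835), and for the endothelial genes *Esam* (0.975) and *Flt1* (0.848). It was lowest for *Cd68* (0.914), *Per3* (0.905), *Fbn2* (0.848) and *Lama2* (0.848) and for the matrix share, 1.09% against a median of 1.90% (gap 0.931). P1 replicate 1 was lowest for *Igf2bp2* (0.876) and P1 replicate 4 lowest for *Car3* (0.834).

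The log2 change from P1 to P14 differed between WT and KO muscle in the test of the difference itself for 8 genes. The difference, WT minus KO, was -2.18 for *Cilp*, -1.68 for *Htra4*, -1.51 for *Eda2r* and -1.23 for *Cpne2*, and it was 1.01 for *Galnt15*, 1.26 for *Chodl*, 1.36 for *Mtm1* and 1.43 for *Ppara*. The *Ppara* counts in KO muscle at P1 were 1267 to 2224, against 529 to 722 in WT muscle at P1.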

How the results depend on the processing

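The number of genes changed from P1 to P14 stayed within 1.5 times of 9601 under every alternative run, from 7184 with glmTreat against a fold of 1.5 to 11623 with library totals and 12294 without a fold limit. DESeq2 called 10264, and 9487 genes were called by both tools. Leaving out each replicate gave 9319 to 9760 genes, 4223 to 4416 higher and 5096 to 5344 lower. Library totals moved both directions, to 1598 higher and 10025 lower, so that 13.7% of the called genes were higher instead of 44.8%, and upper quartile scaling gave 36.7%. With library totals the change was -0.12 for *Actc1*, -0.047 for *Mstn*, -0.067 for *Myl3* and -0.16 for *Cpne2*, which were called higher with TMM. It was -0.64 for *Actn2*, -0.73 for *Ampd3*, -0.625 for *Bin1* and -0.67 for *Lama2*, which were not called with TMM. The signs turned by construction, since totals lower all changes by a similar amount.

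Replicate numbers do not pair the samples: deviations of same-numbered libraries correlated from -0.064 to 0.016, and 2 of 8 libraries correlated best with their own number. A block for replicate number left 9392 calls, *Acta1* and *Actc1* lost their call (adjusted p = 0.0156 and 0.0172 by edgeR), and the other 204 of 206 named genes kept theirs. The 6 shares of counts tested kept their direction with each replicate left out (values only, since 4 against 3 was not tested) and, for 5 of them, without the mitochondrially encoded genes.

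The comparison of WT with KO was the least stable. Instead of 8 genes, DESeq2 called 52, a fit of all 32 libraries 3, and the replicate block 4. Leaving out each replicate gave 0 to 8, with 0 without WT P1 replicate 1, WT P1 replicate 4, WT P14 replicate 1 or KO P14 replicate 3. The cause was not tested.

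Depth was similar in the 8 libraries and limits only genes near the floor of 3 counts, such as *Lin28b*. Each age has n = 4 with no measurement between them, so the order of events between P1 and P14 was not measured. Age and any batch that goes with it cannot be told apart.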

Other observations

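Single markers of other cells, given above only as counts, had these values. The adipocyte genes *Retn* and *Adipoq*, which encode fat cell hormones, had means of 13.1 and 42.0 CPM at P1 and 0.164 and 2.16 CPM at P14. The macrophage genes *Cd68*, a lysosomal protein, and *Lyve1*, a marker of resident macrophages and lymphatic vessels, had 14.7 and 29.1 CPM at P1 and 2.99 and 6.67 CPM at P14, and both fell (edgeR adjusted p = 1.15e-05 and 2.72e-07). The tendon genes *Scx* and *Tnmd*, a transcription factor and a membrane protein of tendon cells, fell by 1.22 and 1.33 on the log2 scale. Erythroid genes fell in 7 of 10 cases up to P14, 6 of 8 rose from P14 to P21, and 8 of 8 fell from P21 to P35. Neighbouring steps share libraries, so these changes are not independent.

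The endothelial genes *Flt1*, *Aplnr* and *Esam*, receptors and a junction protein of vessel lining, rose by 1.28, 0.98 and 0.96 on the TMM scale, and with library totals 0 of 14 endothelial genes were called in either direction.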
